A study of Mus musculus with 4 samples.

Results

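The SLIT ligands, the ROBO receptors and the srGAP effectors were followed in lungs of mice carrying metastases of 4T1 mouse triple-negative breast cancer. The 10 genes (Slit1, Slit2, Slit3, Robo1, Robo2, Robo3, Robo4, Srgap1, Srgap2 and Srgap3) were chosen by gene symbol as the complete families, out of 56748 genes in the count table, and they were chosen with the treated and saline values of these same libraries known. Their differences between groups are therefore given as a description, with no test to support them. In the study, 4T1-FLuc cells, a luciferase-carrying form of the 4T1 line, were injected into the tail vein of 7-week-old female BALB/cJ mice. The saline group (2 libraries) received vehicle only, which the labels call PBS. The cmLumiOpto/PARPi group (2 libraries) received cmLumiOpto together with the PARP inhibitor olaparib at 50 mg/kg for 3 weeks. cmLumiOpto is a gene therapy in which a light-gated channel is placed in the inner mitochondrial membrane and is opened by light from a co-expressed luciferase and its substrate ViviRen. The genes run from a cfos promoter and are delivered by exosome-associated AAV that carries an antibody to CD276. Both groups carry the same tumour line in immunocompetent hosts, and no library used here comes from cmLumiOpto or olaparib alone, so their parts cannot be told apart. The labels name tumour cells as the source of the RNA, whereas the study's methods name lung tissue with metastasis. Neither source says how many mice each library represents, so the spread between the 2 libraries of a group may be partly technical.

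SLITs are large secreted glycoproteins that bind some of the ROBO receptors at the cell surface, together with heparan sulfate. They were first known for repelling growing axons at the midline, and they also guide migrating cells and blood vessels. The srGAPs bind the cytoplasmic tail of ROBO receptors and pass the signal on to the actin cytoskeleton. In lung and breast, SLIT and ROBO genes are best known from epithelial branching, from vessels (Robo4 is an endothelial receptor) and from the stroma.

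Of the 3 ligand genes, Slit2 and Slit3 also host a microRNA precursor in an intron, and these sequences are shown because the hosts were the SLIT genes with measurable RNA. Mir218-1 lies in intron 16 of Slit2 and Mir218-2 in intron 14 of Slit3. Both give the same miR-218-5p, so the 2 loci share a seed (bases 2 to 8, in capitals), while their 3p arms have different seeds. The sequences are RefSeq's on GRCm38.p6, all on the plus strand, at chr5:48223966-48223986 and chr11:35616840-35616860 for the 5p arm, chr5:48224005-48224026 for the 3p arm in Slit2 and chr11:35616882-35616903 for the 3p arm in Slit3.
mmu-miR-218-5p: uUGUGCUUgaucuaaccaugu
mmu-miR-218-1-3p: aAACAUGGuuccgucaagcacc
mmu-miR-218-2-3p: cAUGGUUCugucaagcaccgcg
Both precursor genes had 0 counts in every library. Libraries made from poly-A RNA are not built to hold mature microRNAs, so these values say nothing on miR-218 itself.

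The libraries held between 15263375 and 16755228 counts. A gene was tested where edgeR's filter found enough counts, which left 15167 genes, 8 of the 10 among them. No gene passed an adjusted p of 0.05 in edgeR's quasi-likelihood test (0% of 15167), and the smallest adjusted p was 0.138. An unadjusted p below 0.05 was reached by 3221 genes. Across all tested genes the median log2 fold change was 0.02, with the 5th percentile at -0.78 and the 95th at 1.23. Upper-quartile scaling shifted log2 fold changes by a median of 0.11 and altered the direction of none of the 8. Levels below are CPM, each library's counts scaled to a common total with edgeR's TMM factors, in the order saline 1, saline 2, treated 1 and treated 2. The 3-count floor corresponds to 0.173 to 0.204 CPM in these libraries.

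Slit3 was the ligand with the most RNA and the member with the largest difference between the groups. Its level was 79.5 and 90.5 CPM in the saline libraries and 20.3 and 18.2 CPM in the treated libraries. Both treated libraries lay far below both saline libraries. The means were 85.0 ± 7.76 and 19.2 ± 1.48 CPM (SD, n = 2 each), a log2 fold change of -2.14 (SE 0.16). Only 0.224% of the tested genes had a lower log2 fold change. The counts behind these levels were 1268, 1328, 352 and 302. Slit3 (ENSMUSG00000056427) spans chr11:35121224-35708507 on GRCm38, and its deposited length of 6067 bases stands for a locus of 587.28 kb.

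Slit2, which encodes the SLIT best studied as a repellent, was measured at 17.6, 17.1, 16.9 and 8.85 CPM. The first treated library was close to the saline libraries and the second was lower. The log2 fold change was -0.43 (SE 0.33), and it was -0.97 without treated replicate 1 and -0.06 without treated replicate 2. The groups did not overlap after TMM scaling, but they overlapped with library totals and with upper-quartile scaling. Slit2 (ENSMUSG00000031558) lies at chr5:47983138-48307733. Slit1 (ENSMUSG00000025020, chr19:41600257-41743665), known chiefly from the nervous system, had 2, 2, 2 and 0 counts, below the 3-count floor in all libraries, and no fold is given for it.

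**Figure D1:**
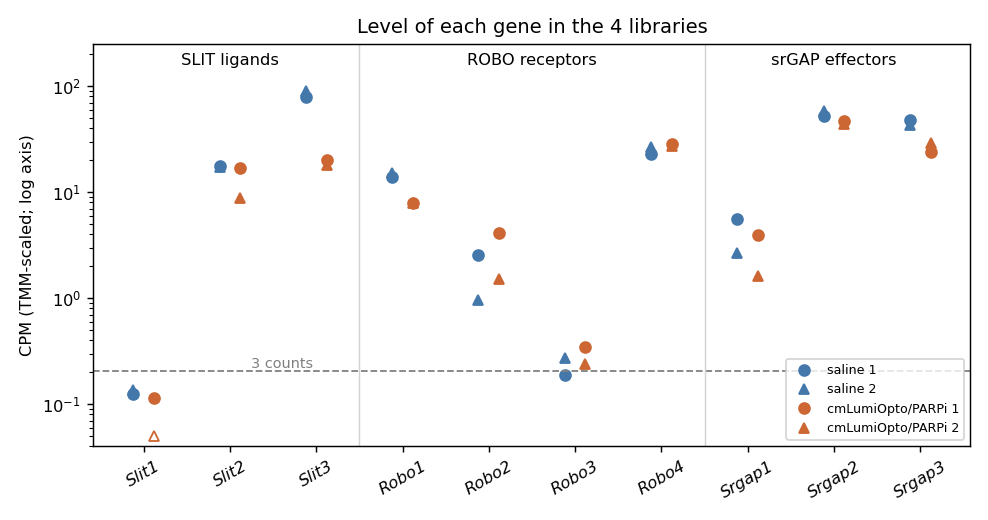
Level of the 10 genes in each library, as TMM-scaled CPM on a log axis, with circles for replicate 1 and triangles for replicate 2, and an open symbol at the axis floor for a library with 0 counts. Slit3 and Robo1 sit lower in both treated libraries than in either saline library, and Slit1 lies under the dashed line, which is the highest of the libraries' 3-count floors.

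Among the receptors, Robo1 was lower in the treated libraries and Robo4 slightly higher. Robo1, a broadly expressed SLIT receptor, was measured at 14.1, 15.2, 7.83 and 7.82 CPM. The treated libraries differed from each other by little and lay below both saline libraries. The means were 14.6 ± 0.812 and 7.83 ± 0.00538 CPM (SD, n = 2 each), with a log2 fold change of -0.90 (SE 0.23). Of the tested genes, 3.51% had a lower value. Robo1 (ENSMUSG00000022883, chr16:72308306-73046095) is the longest locus of the family, at 737.79 kb.

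Robo4, the receptor of endothelial cells, was measured at 23.1, 26.5, 28.2 and 27.4 CPM. The treated libraries were the 2 highest, by a small margin. The log2 fold change was 0.16 (SE 0.17), near the middle of all genes (percentile 61.5). Robo4 (ENSMUSG00000032125, chr9:37401897-37415115) and Robo3 are neighbours whose 3′ ends face each other 553 bases apart. Robo3 (ENSMUSG00000032128, chr9:37415669-37433246), a receptor of commissural neurons, had 3, 4, 6 and 4 counts, too few to test.

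Robo2 (ENSMUSG00000052516, chr16:73891839-74411825), which serves axon guidance and kidney development, was sparse, with 2.57, 0.954, 4.09 and 1.5 CPM. The replicates differed more than the groups did. Replicate 1 exceeded replicate 2 by 2.70-fold in saline and by 2.72-fold after treatment. The log2 fold change was 0.66 (SE 0.70). It was 0.10 without saline replicate 2, 1.53 without saline replicate 1, -0.24 without treated replicate 1 and 1.18 without treated replicate 2.

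Of the srGAPs, Srgap3 had the largest difference between the groups. It was measured at 47.5, 42.9, 24.0 and 29.1 CPM, and both treated libraries lay below both saline libraries. The means were 45.2 ± 3.26 and 26.6 ± 3.62 CPM (SD, n = 2 each), with a log2 fold change of -0.77 (SE 0.17). Srgap3 (ENSMUSG00000030257) lies at chr6:112717971-112947266.

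Srgap2, which shapes membrane protrusions, was measured at 52.2, 58.8, 47.2 and 44.3 CPM, again with no overlap of the groups. Its log2 fold change was -0.28 (SE 0.14), but it was 0.060 after subtraction of the trend with gene length and expression. Srgap2 (ENSMUSG00000026425) lies at chr1:131285251-131527352.

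Srgap1 (ENSMUSG00000020121, chr10:121780991-122047315) had 5.58, 2.66, 3.92 and 1.63 CPM, with overlapping groups. As for Robo2, replicate 1 was the higher library in both groups, by 2.10-fold in saline and 2.41-fold after treatment. The log2 fold change was -0.57 (SE 0.59). It was 0.045 without saline replicate 1, -1.02 without saline replicate 2, -1.34 without treated replicate 1 and -0.10 without treated replicate 2.

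Over the 8 tested members, 6 had a log2 fold change below 0 and 2 above, where 48% of all tested genes were below 0. The median was -0.50. The groups did not overlap and the treated libraries were lower for 5 members, where 27.8% of all tested genes did so. They did not overlap and were higher for 1 member, against 27.4% of all tested genes. The choice of the genes used this contrast, so nothing is read from these counts. Among all tested genes, the longest (7273 bases or more in the deposited table) had a median log2 fold change of -0.27, and 6 of the 8 tested members are that long. Subtracting a smooth trend on gene length and mean level left Slit3 at -1.99, Robo1 at -0.72, Srgap1 at -0.69, Srgap3 at -0.53 and Slit2 at -0.12, and 5 of the 8 below 0.

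**Figure D2:**
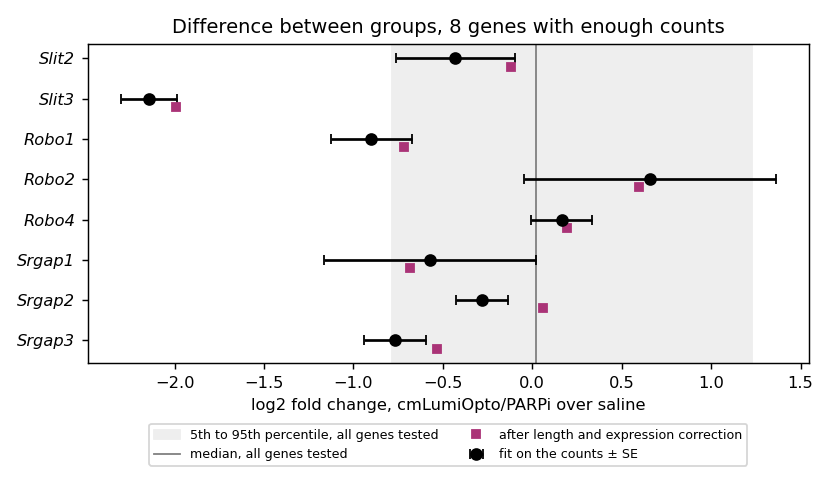
Log2 fold change of treated over saline for the 8 tested genes, with the fitted value and its SE in black and the value after subtraction of the length and expression trend in purple. The grey band spans the 5th to the 95th percentile of all 15167 genes, and Slit3 and Robo1 are the members whose fitted value lies outside it.

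Levels of different genes were compared per kilobase of the deposited gene length. In saline the order was led by Slit3 at 14.0 CPM per kb, followed by Robo4 at 4.68, Srgap3 at 4.59 and Srgap2 at 4.42, which do not differ beyond their SDs. Robo1 (0.886), Slit2 (0.682), Srgap1 (0.451) and Robo2 (0.104) came next. In the treated libraries Robo4 led at 5.25, ahead of Srgap2 at 3.64, Slit3 at 3.17 and Srgap3 at 2.70. The summed level of the 3 SLIT genes was 14.7 ± 1.27 CPM per kb in saline and 3.68 ± 0.481 CPM per kb after treatment (SD, n = 2 each).

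The makeup of each family is computed from the same levels and restates their differences as shares. Slit3 made up 95.2% of the SLIT sum in saline and 86.3% after treatment, while Slit2 made up 4.65% and 13.5%. The mean level of Slit2 itself was not higher after treatment (17.3 ± 0.322 CPM in saline and 12.9 ± 5.67 CPM after treatment). The share of Slit3 was lower in both treated libraries (83.0% and 89.6%) than in the saline libraries (94.9% and 95.5%). The ROBO sum was 5.71 ± 0.440 CPM per kb in saline and 5.93 ± 0.222 CPM per kb after treatment, a difference within the spread of the saline libraries. Within it, Robo4 held 82.0% and 88.5%, and Robo1 held 15.5% and 8.0%. The srGAP sum was 9.46 ± 0.187 and 6.64 ± 0.0252 CPM per kb, and Srgap3 held 48.5% and 40.6% of it. These shares depend on the length used. With the longest coding transcript in place of the deposited length, Slit3 held 87.8% and 69.6% and Slit2 12.1% and 30.2%. Robo4 then held 72.0% and 81.9%, Robo1 24.9% and 13.5%, and Srgap3 40.6% and 33.1%. On that length, Srgap2 (6.92 ± 0.579 CPM per kb) and Robo4 (6.4 ± 0.614) did not differ beyond their SDs in saline. Slit2 (2.23) was level with Robo1 (2.22).

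**Figure D3:**
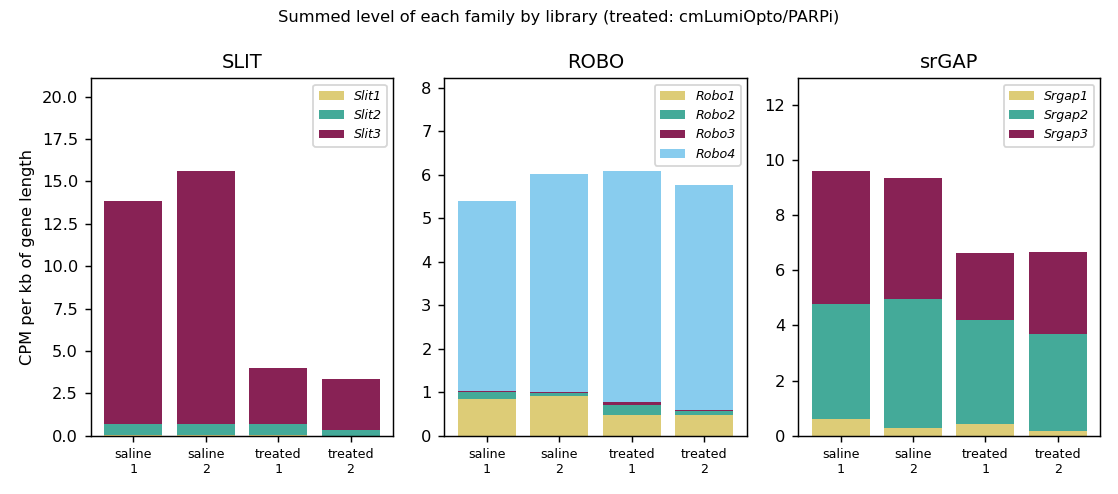
Summed CPM per kb of deposited gene length for the SLIT, ROBO and srGAP genes in each of the 4 libraries, stacked by gene. The SLIT bars, mostly Slit3, are 13.8 and 15.6 in saline and 4.02 and 3.34 after treatment. The ROBO bars, mostly Robo4, stay between 5.39 and 6.09.

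Sequence upstream of the start is printed for Robo4, Robo1 and Srgap3, since these genes ran in different directions and their windows could be cut to bases outside annotated exons. The letters are RefSeq's on GRCm38.p6, and 9 of the 10 genes had such a window (none for Slit1). Each window was searched on both strands for 4 short motifs, and matches are in capitals. The box bound by SP1-type factors was searched as GGGCGG. The core known for ETS factors was searched as CCGGAA. The core known for TEAD factors was searched as GGAATG. The TATA box was searched as TATAAA. Of all 32851 RefSeq windows of 250 bases, 32.7% held GGGCGG, 12% CCGGAA, 12.6% GGAATG and 12.4% TATAAA. Robo4 at chr9:37401722-37401896, plus strand, and Robo1 at chr16:72662899-72663148, plus strand, inside the locus upstream of a later start, held none of the 4. Srgap3 at chr6:112947267-112947516, minus strand, held GGGCGG and TATAAA.
Robo4: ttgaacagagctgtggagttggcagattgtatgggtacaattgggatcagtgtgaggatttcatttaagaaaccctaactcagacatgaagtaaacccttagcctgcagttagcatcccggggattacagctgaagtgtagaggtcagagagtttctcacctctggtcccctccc
Robo1: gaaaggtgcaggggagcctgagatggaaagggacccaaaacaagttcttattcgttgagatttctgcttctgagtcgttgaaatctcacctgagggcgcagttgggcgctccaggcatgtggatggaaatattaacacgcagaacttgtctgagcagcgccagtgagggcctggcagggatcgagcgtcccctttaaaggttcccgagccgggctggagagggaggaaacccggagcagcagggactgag
Srgap3: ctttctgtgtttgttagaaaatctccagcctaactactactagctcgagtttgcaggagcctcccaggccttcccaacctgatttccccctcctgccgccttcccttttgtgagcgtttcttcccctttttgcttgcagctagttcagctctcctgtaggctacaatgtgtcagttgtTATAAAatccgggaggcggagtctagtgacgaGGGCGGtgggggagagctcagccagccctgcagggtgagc
The window of Slit3 overlaps annotated exon sequence and is not printed. It was 78.8% G and C, higher than 98.3% of all windows, and held 6 matches to GGGCGG. The matches are a description of the letters only.

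Genes that act with the receptors were read from 2 lists of 39 genes, of which 36 were tested. Of these, 31 had a log2 fold change below 0 and 5 above, where 48% of all tested genes were below 0. The median was -0.42, against 0.02 over all tested genes, and none passed an adjusted p of 0.05 in edgeR's test. The groups did not overlap for 24 genes that were lower and 2 that were higher. Of all tested genes, 27.8% were lower and 27.4% higher without overlap. The lists were chosen with earlier results of these data known, so nothing is read from these counts.

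Co-receptors and binding partners (16 tested, 14 below 0, median -0.44) include the heparan sulfate proteoglycan Sdc3, at 268.3, 224.4, 172.4 and 143.1 CPM, with a log2 fold change of -0.64 (SE 0.17). Ndst1, an enzyme that sulfates heparan sulfate, was at 211.5 and 212.5 CPM in saline and 146.5 and 143.6 CPM after treatment, a log2 fold change of -0.55 (SE 0.13). Plxna1, a semaphorin receptor, had a log2 fold change of -0.50 (SE 0.13). Cxcr4, the chemokine receptor whose signalling SLITs are known to dampen, was higher in both treated libraries, at 35.6 and 30.6 CPM against 21.6 and 11.5 CPM, with a log2 fold change of 1.00 (SE 0.32). The log2 fold change of its ligand Cxcl12 was 0.04 (SE 0.36). No adjusted p here was below 0.138 in edgeR's test. Dcc, the netrin receptor, had 0 counts in all libraries, and Nell2 had 0, 0, 3 and 1.

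Regulators close to the receptor (20 tested, 17 below 0, median -0.42) held 2 related kinases with lower levels. Abl2, a non-receptor tyrosine kinase, was at 114.8, 166.9, 52.6 and 74.6 CPM, with a log2 fold change of -1.15 (SE 0.25). Both treated libraries lay below both saline libraries. Its relative Abl1 had a log2 fold change of -0.73 (SE 0.16), and Clasp1, a microtubule plus-end protein, one of -0.83 (SE 0.15). The adaptor Nck1 was higher in both treated libraries, with a log2 fold change of 0.59 (SE 0.22). Values above 0 were also found for Arhgap4 (0.34, SE 0.29) and Evl (0.28, SE 0.30), both with overlapping groups.

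**Figure D4:**
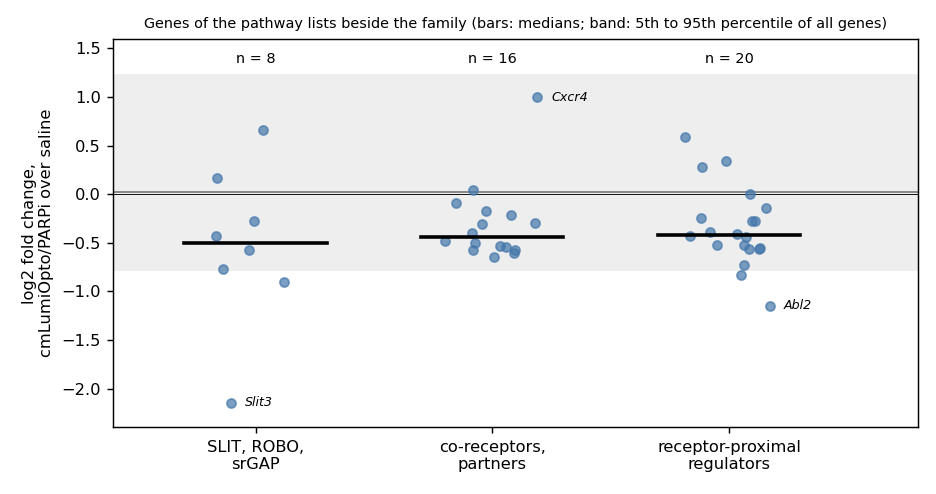
Log2 fold change of treated over saline for the tested SLIT, ROBO and srGAP genes and for the tested genes of the 2 pathway lists, with a bar at each median. The grey band spans the 5th to the 95th percentile of all tested genes, and medians lie at -0.50, -0.44 and -0.42.

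The libraries held RNA of several cell types. In bulk RNA, fewer cells of a type and less RNA per cell cannot be told apart. Of all tested genes, 48% had a log2 fold change below 0. Without overlap of the groups, 27.8% of them were lower and 27.4% higher. The marker lists were chosen with earlier results of these data known, so nothing is read from their counts of genes. The summed CPM of 10 fibroblast genes was 5185 and 3534 in saline and 2137 and 1990 after treatment, with 6 genes lower in both treated libraries (Col1a1, Col1a2, Col3a1, Pdgfra, Dcn and Lum) and 3 higher (Tcf21, Dpt and Inmt). Col1a1 alone was at 2064, 1377, 454.7 and 572.0 CPM. Most of the fibroblast sum came from Col1a1, Col1a2 and Col3a1, and the groups overlapped for Fbln1. The 6 lower genes ran in the same direction as Slit3, Robo1 and Srgap3 and the 3 higher ones in the opposite direction, and the part of fibroblast RNA in those values was not tested. The 12 endothelial genes summed to 659.4 and 523.9 CPM in saline and to 1092 and 591.8 CPM after treatment, with overlapping groups. Of these genes, 11 had a log2 fold change above 0, beside the 0.16 of Robo4, and 5 were higher without overlap. Their part in Robo4's value was not tested. The 10 smooth muscle and pericyte genes summed to 220.1, 255.3, 237.8 and 197.5 CPM, with overlapping groups. Of these, 3 were lower without overlap (Acta2, Tagln and Cspg4) and 2 higher (Rgs5 and Higd1b). The 5 mesothelial genes summed to 145.2, 243.5, 255.2 and 221.4 CPM, with overlapping groups.

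Lung epithelium stood apart between groups and between replicates. The 7 alveolar type 2 genes summed to 1665, 443.3, 8072 and 2880 CPM, with Sftpc as the largest part. Of these genes, 6 were higher without overlap, while Abca3 was lower without overlap (log2 fold change -0.33). The 7 alveolar type 1 genes summed to 311.7, 132.3, 877.9 and 431.1 CPM. The 7 airway genes summed to 1161, 87.4, 5745 and 3208 CPM, mostly from Scgb1a1. The sum of each of these epithelial lists was higher in replicate 1 than in replicate 2 of both groups, as for Robo2 and Srgap1. Within the treated pair, Scgb3a1 (14.3 and 142.5 CPM) and Bpifa1 (1.84 and 63.1 CPM) were higher in replicate 2. The other airway genes were higher in treated replicate 1. The fibroblast, endothelial, macrophage, T and NK cell and B cell sums were also higher in replicate 1 of both groups. This order of the sums was therefore not particular to epithelium, but single genes departed from it. Among them, Col1a1, Col1a2, Col3a1 and Pdgfra were higher in treated replicate 2, and Mrc1 in replicate 2 of both groups. The part of any of these cell types in the values of Robo2 and Srgap1 was not tested. The 8 epithelial keratin and tumour genes summed to 3014, 3392, 2695 and 3855 CPM and did not separate the groups. Krt8, an epithelial keratin, was present in every library. Whether these genes tell tumour cells from lung epithelium was not tested, so tumour content is not read from them. Neural and glial genes were near 0, with sums of 1.94, 2.25, 2.99 and 3.01 CPM. Of these, Elavl4 was at 0 counts in all libraries and Sox10 in 3 of them, beside the few counts of Slit1 and Robo3. Macrophage genes summed to 1451 to 1881 CPM, T and NK cell genes to 16.8 to 100.2 CPM and neutrophil genes to 468.8 to 1436 CPM. B cell genes summed to 1.30 to 10.5 CPM and cardiac muscle genes to 65.6 to 150.3 CPM. Of these 5 lists only that of B cells was separated between the groups. The cardiac sum was almost all Tnnt2 (59.6 to 144.2 CPM). Myh6 and Actc1 reached at most 2.89 and 3.74 CPM, and Tnni3, Nppa and Ryr2 were too low to test.

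**Figure D5:**
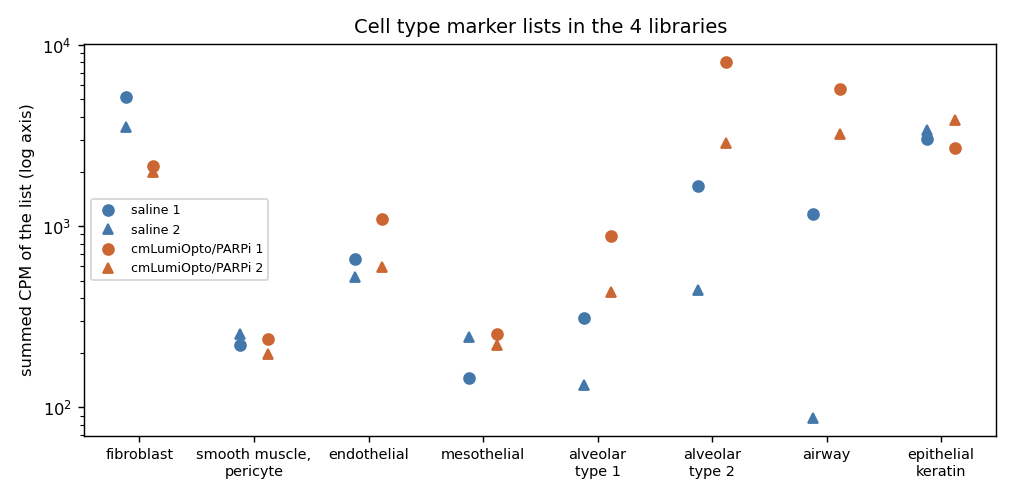
Summed CPM of 8 cell type marker lists in each of the 4 libraries, on a log axis. The fibroblast sum is lower in both treated libraries, and the alveolar and airway sums differ between the replicates of each group as well as between the groups.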

How the data were processed

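Poly-A RNA from 4 libraries (saline and cmLumiOpto/PARPi, 2 each) was sequenced on an Illumina instrument. Whether the libraries were strand-specific was not stated, so reads of a gene and an antisense partner cannot be told apart. Transcripts overlapping the 10 genes had 0 to 6 counts. The authors aligned reads with HISAT2, and the deposited values are raw counts per gene. The program that counted them is not given in the sources used here. The study's methods name GRCm38, whereas the submitters' processing notes name mm39 (and TopHat2 beside HISAT2). Positions in the table differ from GRCm38 for most genes, so coordinates were taken from GENCODE M21 (GRCm38) by Ensembl ID. The study's methods name another RNA kit than the labels.

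The counts were fitted with edgeR 4.0.16 in R 4.3.3 (TMM scaling, filterByExpr at its minimum count of 10, then a quasi-likelihood F-test of treated against saline by glmQLFTest) and p-values were adjusted by Benjamini-Hochberg over 15167 genes. CPM are TMM-scaled. DESeq2 1.42.0 was an alternative, beside upper-quartile scaling, no filter, the other quasi-likelihood option, the replicate number as a term, leaving out each library, and a loess fit (span 0.5) on log2 gene length and mean expression. The scripts were tested on simulated data.

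All 10 members are named. Of each pathway list, up to 3 genes in each direction with the smallest unadjusted p are named. Dcc and Nell2, too low to test, were named in addition after their values were seen. The members, pathway lists and marker lists were chosen with earlier results of these data known. A further pathway list is not reported here.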

Additional observations from a re-analysis of the deposited data

How the results depend on the processing

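The number of genes past an adjusted p of 0.05, 0 in edgeR with TMM scaling, was 0 with upper-quartile scaling and with the other quasi-likelihood option, 981 with DESeq2 (6.47% of 15167), and 2000 without a filter on low counts (7.86% of 25435). With the replicate number as a block (replicate block) it was 1822 (12% of 15167). It ranged from 0 to 31 when 1 library was left out, with 31 without saline replicate 1, 9 without saline replicate 2, 2 without treated replicate 1 and 0 without treated replicate 2. Where 1 library was left in a group, it was assumed to vary like the other group. The libraries share only a number, not a stated source. Deviations of same-numbered libraries from their group means had a Spearman correlation of 0.298 over genes. Of the 8 tested members, Slit3 and Srgap3 passed with DESeq2. Slit3, Robo1 and Srgap3 passed with the replicate block (adjusted p 0.00218, 0.0459 and 0.0325 in edgeR) and without the filter. Slit3 also passed without saline replicate 1 (0.0175) and without saline replicate 2 (0.0404). The members were chosen with this contrast known, so which of them passed is a description only. The cause of the differences between settings was not tested. The number of members with a log2 fold change below 0 was 6, was 5 after the loess fit and ranged from 5 to 7 when 1 library was left out. Srgap2 was 0.060 after the loess fit. With 1 library left out, Srgap1 ranged from -1.34 (without treated replicate 1) to 0.045 (without saline replicate 1) and Robo2 from -0.24 (without treated replicate 1) to 1.53 (without saline replicate 1). Slit3 ranged from -2.25 to -1.99, Robo1 from -0.97 to -0.72, Srgap3 from -0.94 to -0.53 and Robo4 from 0.05 to 0.27 over all alternatives. Slit1 and Robo3 were too shallow for any comparison at these depths.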
